A study of Mus musculus with 24 samples.

Results

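Mat1a, Mat2a and Mat2b, the genes of methionine adenosyltransferase, were followed through 24 hippocampal microarrays by every probe that the arrays carry for them. Members were chosen by mapping the transcript accession of each probe to a gene symbol, which gave 1 probe for Mat1a (A_51_P464182), 2 for Mat2a (A_51_P500344 and A_55_P2095047) and 1 for Mat2b (A_55_P2039235). These were 3 of 19751 gene symbols and 4 of 39429 probes. The study asked whether a methyl donor-rich diet (MD) eaten by male mice before mating left traces in hippocampal gene expression of their offspring (F1) and grandoffspring (F2), compared with a control diet (CD). Mat2a had been named by the study from the same F1 arrays, so its F1 difference below is not independent evidence. In the study's own fit A_51_P500344 had an FDR below 0.1. By qPCR the study also reported lower Mat2a in a separate set of F1 samples, and no measurable difference in F2.

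The CD fathers ate a standard breeding chow. The MD fathers ate the 3MS ZM chow, in which each kg had an added 150 mg zinc, 1.5 mg vitamin B12, 15 mg folic acid, 15 g each of betaine and choline, and 7.5 g methionine. All fathers were C57BL/6J, kept on either diet for 6 weeks before mating, and the mothers of the F1 mice were 129S6/SvEv. For F2, sires were sons of MD or CD males and all dams were daughters of CD males, so these mice were mixed hybrids, whereas the F1 mice shared 1 hybrid genotype. Offspring of both generations ate control diet. The labels give an age of 4 weeks, whereas the paper describes the assessed offspring as adult. Each array held RNA pooled from 4 mice, with 6 arrays per group. The F2 labels also carry a code, lh or rh, whose meaning was not stated.

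Methionine adenosyltransferase makes S-adenosylmethionine, the methyl donor of most cellular methylation, from methionine and ATP. Mat1a encodes the catalytic subunit of the liver enzyme, Mat2a the catalytic subunit used in most other tissues including brain, and Mat2b a regulatory subunit that binds the Mat2a product. Mat2a mRNA is known to be spliced and degraded according to the supply of S-adenosylmethionine, through methylation of its hairpins by Mettl16.

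Each array carried 43020 non-control spots, none saturated. The mean number of spots well above background was 35736 in CD F1, 34791 in MD F1, 32902 in CD F2 and 32379 in MD F2. Fewer were found on replicate 6 of CD F2 (28000) and replicate 3 of MD F2 (27383), which also had the lowest mean correlation with other F2 arrays (0.977 and 0.974). MD F1 replicate 6 had the lowest mean correlation in F1 (0.985). Both Mat2a probes and the Mat2b probe were well above background on all 24 arrays, and the Mat1a probe on 0. Reported intensities are compared within a probe only, since probes differ in brightness for reasons other than transcript amount. The p-values measure the spread between these pools, and whether pools shared litters was not stated.

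In F1, Mat2a was lower after the paternal methyl diet at its brighter probe, A_51_P500344. Its normalized log2 level was 14.51 to 14.78 in CD F1 (median 14.61) and 14.09 to 14.36 in MD F1 (median 14.19). The 2 groups did not overlap, as all 6 MD F1 arrays were below the lowest CD F1 array. In bulk tissue, fewer cells that express Mat2a and less Mat2a RNA per cell cannot be told apart. Before normalization, median intensities were 26450 in CD F1 and 17240 in MD F1. The log2 difference was −0.41 (SE 0.073, 95% CI −0.57 to −0.25), a ratio of 0.751. The exact permutation p was 0.00216, the smallest that 924 splits of 12 arrays allow, and the limma p was 0.000105. Among all probes it ranked 30 of 39429, and its FDR of 0.12 did not pass the 0.1 threshold. By comparison, 11 of 39429 probes (0.0279%) passed in F1, and 419 of 39223 (1.07%) had every MD F1 array below every CD F1 array. Within the 3 F1 slides the MD minus CD difference of this Mat2a probe was −0.22, −0.52 and −0.50, and with slide as a block the FDR was 0.191. Whether it passed depended on the analysis. It did with all 24 arrays normalized and fitted together (−0.39, FDR 0.0556), where 70 probes passed. It also did with array weights (−0.44, FDR 0.05), where 542 probes passed.

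The dimmer Mat2a probe, A_55_P2095047, was also lower in MD F1 on average, with wider spread. It measured 9.93 to 10.13 in CD F1 (median 9.997) and 9.23 to 10.04 in MD F1 (median 9.74). The groups overlapped, though 5 of 6 MD F1 arrays were below the lowest CD F1 array. Its log2 difference was −0.29 (SE 0.113, 95% CI −0.54 to −0.05; ratio 0.815), limma p = 0.0223, FDR 0.288 and exact permutation p = 0.013. It ranked 3048 of 39429, and 5734 of 39429 probes (14.5%) had a limma p below 0.05 in F1. Within slides its difference was −0.01, −0.54 and −0.34, and with slide as a block the FDR was 0.297. Without its lowest array, MD F1 replicate 6, the difference was −0.20 (exact permutation p = 0.0195). It was −0.18 with the sex measure described below as a covariate (limma FDR 0.64) and −0.14 with total signal (FDR 0.866). Without normalization, where 7952 of 39429 probes passed, it did too (−0.59, limma FDR 0.0844).

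Mat2b showed no such shift in F1. Its probe read 13.37 to 13.76 in CD F1 (median 13.57) and 13.46 to 13.66 in MD F1 (median 13.54), so the MD F1 arrays lay inside the CD F1 range. The log2 difference was −0.02 (SE 0.0748, 95% CI −0.19 to 0.14; limma FDR 0.898), and its sign changed under some scalings, for example 0.04 after scaling to the 75th percentile. Slide by slide the Mat2b difference was 0.10, −0.09 and −0.08.

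**Figure D1:**
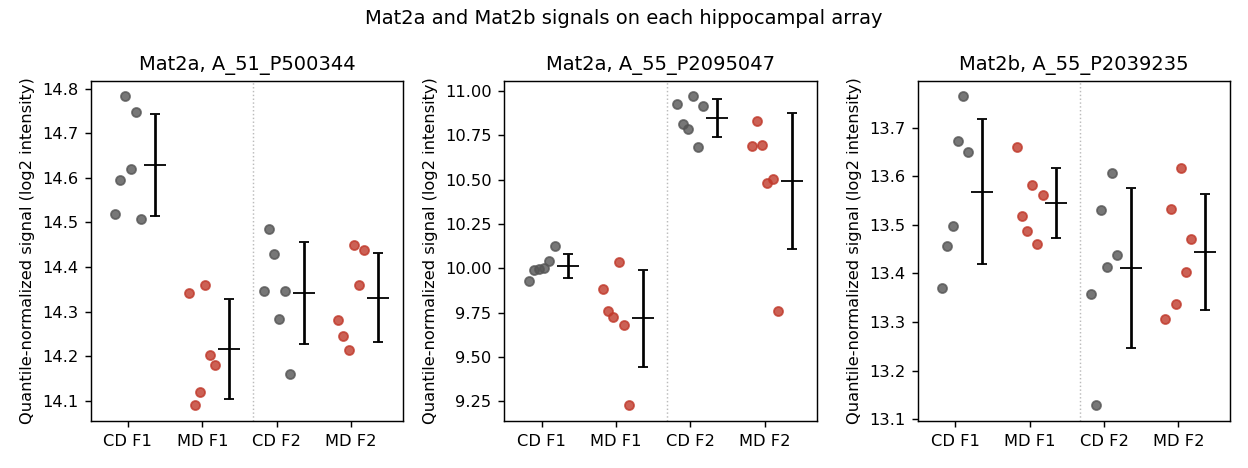
Normalized log2 intensity of each Mat2a and Mat2b probe on every array, by diet and generation, with mean and SD of 6 arrays per group. F1 and F2 were normalized separately, so levels are compared within a generation, where A_51_P500344 separates the diets in F1 and not in F2.

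In F2 no diet difference was detected at the A_51_P500344 probe of Mat2a. It read 14.16 to 14.49 in CD F2 (median 14.35) and 14.21 to 14.45 in MD F2 (median 14.32), with the MD F2 arrays inside the CD F2 range. The difference was −0.01 (SE 0.0735, 95% CI −0.17 to 0.15; limma FDR 0.997), and its sign changed under 75th-percentile scaling (0.06). Its slide values were 0.01, −0.15 and 0.11. By label code the sign differed, at −0.17 among lh arrays and 0.15 among rh arrays, 3 against 3 in each, which was not tested. No probe passed in F2 (0 of 39423, 0%).

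The other Mat2a probe, A_55_P2095047, kept a negative mean difference in F2. Levels ran from 10.68 to 10.97 in CD F2 (median 10.86) and from 9.76 to 10.83 in MD F2 (median 10.59). The ranges overlapped, with 3 of 6 MD F2 arrays below every CD F2 array. The log2 difference was −0.36 (SE 0.157, 95% CI −0.70 to −0.01; ratio 0.781), limma p = 0.0431, FDR 0.89 and exact permutation p = 0.0216. It ranked 1883 of 39423, and 2192 of 39423 probes (5.56%) had a limma p below 0.05 in F2. All 3 slides had a negative value (−0.58, −0.13 and −0.35), and with slide as a block the FDR was 0.822. Leaving out the lowest array, MD F2 replicate 6, gave −0.21 (exact permutation p = 0.0281). By label code the difference was −0.10 among lh arrays and −0.61 among rh arrays, 3 against 3 in each, which was not tested.

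Mat2b was level between the F2 groups, at 13.13 to 13.61 in CD F2 (median 13.43) and 13.31 to 13.62 in MD F2 (median 13.44), and the groups overlapped almost fully. Its difference was 0.03 (SE 0.0895, 95% CI −0.16 to 0.23; limma FDR 0.993). On the 3 slides it was −0.09, 0.14 and 0.05, and by label code 0.05 (lh) and 0.01 (rh).

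The change of the diet difference between generations was then tested with all 24 arrays normalized together. For Mat2a at A_51_P500344, the F1 difference minus the F2 difference was −0.38 (SE 0.101, 95% CI −0.59 to −0.17), limma FDR 0.314, rank 136 of 39423. With slide as a block its FDR was 0.296, and with array weights, where 513 probes passed, it did (−0.41, FDR 0.0798). Without weights this Mat2a value did not pass, while 5 of 39423 probes (0.0127%) did. For A_55_P2095047 the same contrast was 0.08 (95% CI −0.34 to 0.49; FDR 0.959), and its sign changed without normalization (−0.19). For Mat2b it was −0.06 (95% CI −0.30 to 0.19; FDR 0.945).

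Over the 4 groups, Mat2a at A_51_P500344 was lowest in MD F1 (mean ± SD 13.91 ± 0.11), then CD F1 (14.31 ± 0.11), MD F2 (14.67 ± 0.11) and CD F2 (14.68 ± 0.12). A_55_P2095047 followed the same order, at 9.57 ± 0.27, 9.86 ± 0.06, 10.66 ± 0.39 and 11.03 ± 0.11. Mat2b ran from MD F1 (13.28 ± 0.07) and CD F1 (13.30 ± 0.14) to CD F2 (13.70 ± 0.17) and MD F2 (13.74 ± 0.13). Neighbouring groups overlapped at every step of the order for A_55_P2095047 and Mat2b, and only between MD F2 and CD F2 for A_51_P500344. The generations were hybridized on separate slides and scanned on different days, so generation cannot be told apart from slide and scan. F1 and F2 also differed in hybrid genotype and in the sex measure described below, and generation cannot be told apart from these either. The same holds for the change of the diet difference between generations.

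Under control diet, CD F2 exceeded CD F1 at all 3 probes after quantile normalization. At A_51_P500344 of Mat2a every CD F2 array lay above every CD F1 array, with a difference of 0.38 (SE 0.0717, limma FDR 0.000108), but it was 0.07 under 75th-percentile scaling (FDR 0.368), and without normalization the sign was reversed (−0.39). At A_55_P2095047 the difference was 1.17 (SE 0.141, limma FDR 2.79e-07), again without overlap, and 0.71 without normalization (FDR 0.0148). Mat2b differed by 0.40 (SE 0.0821, limma FDR 0.000231), with 5 of 6 CD F2 arrays above every CD F1 array, but by 0.21 under 75th-percentile scaling (FDR 0.0508), and had the opposite sign without normalization (−0.26). Such differences were common: 11549 of 39423 probes (29.3%) passed with CD F2 higher and 12138 with CD F2 lower, and for 7417 of 39054 (19.0%) every CD F2 array lay higher.

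Because quantile normalization assumes the same distribution of signal on every array, the Mat2a and Mat2b results were also taken without it. The median of all probes then shifted by −0.28 between MD F1 and CD F1. Relative to that median, the F1 differences were −0.32 for A_51_P500344, −0.31 for A_55_P2095047 and 0.05 for Mat2b, so Mat2b changed sign and the Mat2a probes did not. In F2 the relative differences were 0.05, −0.37 and 0.06, where the first had the opposite sign to its normalized value. Total signal itself was lower in MD F1 than in CD F1 (log2 27.88 ± 0.09 against 28.04 ± 0.13, exact permutation p = 0.0368). The cause of that difference in total signal was not tested.

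Scaling each array to 4 reference genes (Actb, B2m, Gapdh and Gusb) gave similar F1 values for Mat2a. A_51_P500344 differed by −0.44 (exact permutation p = 0.00216), from −0.54 to −0.36 with single reference genes. A_55_P2095047 differed by −0.43 (exact permutation p = 0.0152) and Mat2b by −0.07 (exact permutation p = 0.491), which changed sign against Gusb alone (0.01). In F2 the scaled differences were 0.02 for A_51_P500344 (−0.04 against Actb alone), −0.40 for A_55_P2095047 (exact permutation p = 0.0303; −0.29 against B2m alone, exact permutation p = 0.279) and 0.03 for Mat2b (−0.03 against Actb alone).

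The 2 Mat2a probes were next compared array by array, through their log2 difference. In F1 this was 4.62 ± 0.14 in CD and 4.50 ± 0.24 in MD, a change of −0.12 (exact permutation p = 0.312). In F2 it was 3.49 ± 0.19 in CD and 3.84 ± 0.46 in MD, a change of 0.35 (exact permutation p = 0.104). A differing diet response of the 2 Mat2a probes was therefore not detected in either generation with all arrays. Leaving out 1 array could bring it under 0.05: without MD F1 replicate 6 the change was −0.21 (exact permutation p = 0.0216), and without MD F2 replicate 2 it was 0.43 (exact permutation p = 0.039). Without MD F2 replicate 6 the F2 change was smaller, 0.18 (exact permutation p = 0.199). Among 3487 genes with 2 bright probes, the median size of this change was 0.13 in F1 and 0.09 in F2 (quartiles 0.04 to 0.17). Of these genes, 52.5% had a change at least as large as that of Mat2a in F1 and 5.36% in F2. The gap between the Mat2a probes in the generation difference was 0.79, beside a median of 0.58 (quartiles 0.24 to 1.06).

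Array-to-array deviations from the group means were weakly related between the Mat2a probes in F1 and inversely in F2. Pearson r was 0.34 in F1 (permutation p = 0.347, BH 0.694 over 36 correlations; Spearman rho 0.20; r 0.16 without the 2 farthest arrays), and its sign changed under 75th-percentile scaling (−0.15). In F2, r was −0.57 (permutation p = 0.0147, BH 0.143; rho −0.70; r −0.71 without the 2 farthest arrays), but positive without normalization (0.66). Within MD F2 alone r was −0.75 (exact permutation p = 0.0347, BH 0.25; rho −0.89; −0.81 without 2 arrays). For same-gene probe pairs on these arrays the median r was 0.27 in F1 (quartiles −0.16 to 0.61) and 0.43 in F2 (quartiles 0.04 to 0.73). An r at or above that of the Mat2a pair was found in 45.2% of genes in F1 and 96.6% in F2. None of the 36 correlations reached a BH value of 0.05 after normalization. Without normalization, both Mat2a probes also followed total signal in F2 (0.96 for A_51_P500344 and 0.80 for A_55_P2095047).

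**Figure D2:**
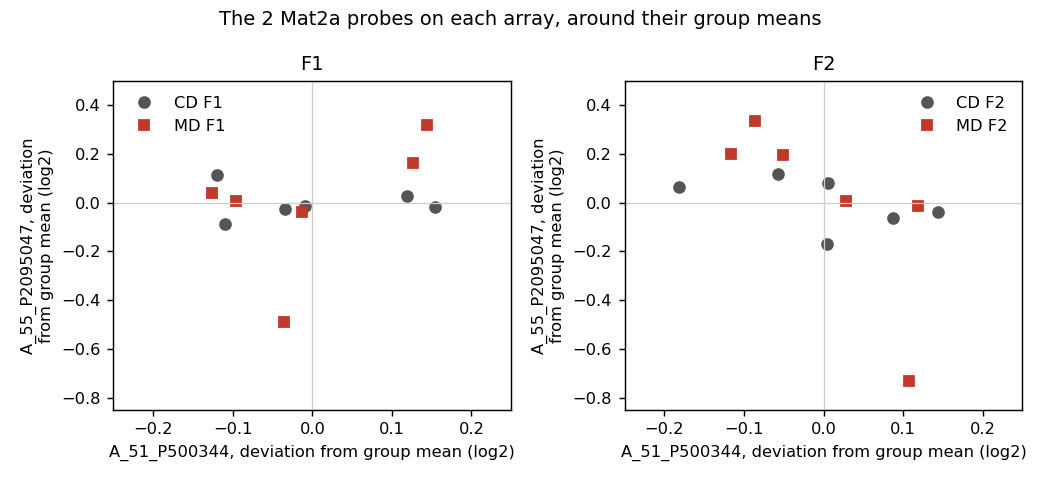
Deviation of each array from its group mean (log2) for the pair of Mat2a probes, 12 arrays per generation, colored by diet. The Mat2a pair ran in opposite directions in F2, and the sign was reversed without normalization, where both probes also followed total signal.

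Without normalization, all correlations of Mat2b with a Mat2a probe were positive and reached a BH value of 0.05 (0.61 to 0.87). The unnormalized probes also correlated with total signal (0.76 to 0.96), so no conclusion is drawn from that sign. After normalization, no correlation of Mat2b with a Mat2a probe reached a BH value of 0.05. With A_51_P500344, r was 0.42 in F1 (permutation p = 0.203, BH 0.665; rho 0.29; r 0.63 without the 2 farthest arrays) and −0.01 in F2 (permutation p = 0.988), where every alternative scaling gave a positive sign (0.17 for the 75th percentile). With A_55_P2095047, r was 0.25 in F1 (permutation p = 0.255; rho 0.64, BH 0.16; r 0.69 without the 2 farthest arrays), changing sign under 75th-percentile scaling (−0.23), and −0.18 in F2 (0.68 without normalization). A slide held 4 arrays, too few for a correlation within slides.

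Correlations of Mat2a and Mat2b with total signal depended on how signal was summarized. For Mat2b in F1, the median signal gave 0.46. For Mat2b, r was 0.77 in F1 (permutation p = 0.0134, BH 0.143; rho 0.71; r 0.77 without the 2 farthest arrays) and 0.95 within CD F1 (exact permutation p = 0.00972, BH 0.143; rho 0.94; r 0.83 without 2). Within MD F1 the Mat2b value was 0.24 (exact permutation p = 0.64; rho 0.20; r −0.15 without 2). For A_55_P2095047 of Mat2a, F1 r was 0.53 (permutation p = 0.0158, BH 0.143; rho 0.65) and 0.25 without the 2 farthest arrays. The median signal in place of total signal gave 0.83, and removing slide means gave 0.72. For A_51_P500344 it was 0.17 (permutation p = 0.621; rho 0.09; r −0.09 without the 2 farthest arrays), with a negative sign under 75th-percentile scaling (−0.06). In F2, r with A_51_P500344 was 0.34 (permutation p = 0.291; rho 0.37; 0.11 without the 2 farthest arrays), and −0.18 under 75th-percentile scaling. It was 0.70 against the count of spots well above background and 0.12 with slide means removed. With A_55_P2095047 it was 0.27 (permutation p = 0.542; rho −0.01; 0.64 without the 2 farthest arrays), and −0.22 against the count of spots well above background. With Mat2b it was 0.25 (permutation p = 0.442; rho 0.30), and −0.01 under 75th-percentile scaling.

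Mat1a was at background throughout. Its probe gave intensities of 1.64 to 7.93 over the 24 arrays, so no fold change was computed and no level is given. An effect of diet on Mat1a was not tested.

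**Figure D3:**
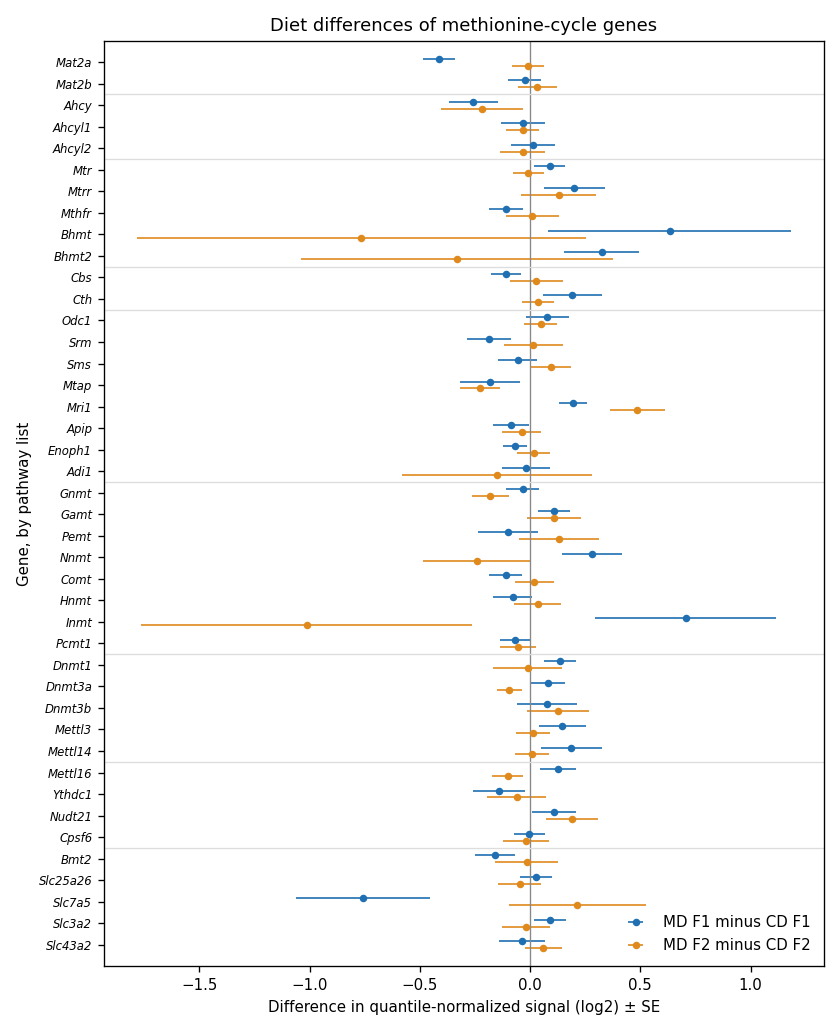
Log2 difference between MD and CD with its SE for 42 genes of methionine and methyl metabolism, F1 and F2, each gene by its brightest probe. Mat2a had a difference below 0 in F1 and near 0 in F2, and no gene passed the threshold. Over all probes, 11 of 39429 passed in F1 and 0 of 39423 in F2.

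Around Mat2a, 44 genes of methionine, folate, polyamine and methyltransfer pathways were listed and 42 could be measured. None was called in F1, in F2 or in the interaction. Calls were as rare over all probes, at 0.0279% in F1, 0% in F2 and 0.0127% in the interaction. A count of 0 among 42 genes is therefore near the share of all probes and sets these genes apart in no way. In F1, 20 had a difference above 0 and 22 below, with a median of −0.01 beside 0.0104 for all probes. Ahcy, which hydrolyzes S-adenosylhomocysteine, differed by −0.26 in F1 (limma FDR 0.329) and −0.22 in F2 (FDR 0.937). Mettl16, the methyltransferase of Mat2a hairpins, differed by 0.13 in F1 (limma FDR 0.477; −0.14 without normalization) and −0.10 in F2 (FDR 0.924). Nudt21, a cleavage factor subunit linked to Mat2a splicing, differed by 0.11 in F1 (limma FDR 0.62) and 0.19 in F2 (FDR 0.917). Mri1 of methionine salvage differed by 0.19 in F1 (limma FDR 0.246; −0.08 without normalization) and 0.49 in F2 (FDR 0.89). The amino acid carrier Slc7a5, which imports methionine, differed by −0.76 in F1 (SE 0.302, limma FDR 0.299) and 0.21 in F2 (FDR 0.965). With the sex measure described below as a covariate, F1 differences shrank to −0.32 for Slc7a5 (limma FDR 0.723), −0.06 for Ahcy (FDR 0.836), 0.01 for Mettl16 (FDR 0.984) and 0.02 for Nnmt (FDR 0.963). With the same covariate they grew to 0.21 for Dnmt1 (limma FDR 0.404), −0.17 for Cbs (FDR 0.478) and 0.26 for Mri1 (FDR 0.318).

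Several other genes that use or restore methionine were read beside Mat2a. Bhmt2, which remethylates homocysteine, differed by 0.33 in F1 (limma FDR 0.395; −0.08 without normalization) and −0.33 in F2 (FDR 0.985), where it was well above background on 9 of 12 arrays. Cbs, which removes homocysteine into cystathionine, differed by −0.11 in F1 (limma FDR 0.462) and 0.03 in F2 (FDR 0.997). The DNA methyltransferase Dnmt1 differed by 0.13 in F1 (limma FDR 0.397; −0.15 without normalization) and −0.01 in F2 (FDR 0.998). Nicotinamide methyltransferase Nnmt differed by 0.28 in F1 (limma FDR 0.366; −0.07 without normalization) and −0.24 in F2 (FDR 0.937). The glycine methyltransferase Gnmt differed by −0.03 in F1 and −0.18 in F2 (limma FDR 0.854 and 0.898), and the methionine synthase reductase Mtrr by 0.20 and 0.13 (FDR 0.509 and 0.958). The DNA methyltransferase Dnmt3a differed by 0.08 in F1 and −0.09 in F2 (limma FDR 0.637 and 0.917). The cystathionine lyase Cth differed by 0.19 in F1 (limma FDR 0.516) and 0.04 in F2 (FDR 0.984; −0.06 without normalization), and the amino acid carrier Slc43a2 by −0.04 in F1 (FDR 0.883) and 0.06 in F2 (FDR 0.961; −0.03 with array weights).

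Probes with the most similar pattern to each Mat2a probe are given as a description, with no chance level computed and the 2 lists not compared by a test. For A_51_P500344 the highest correlations of deviations among 17952 probes were with Adcy7 (an adenylate cyclase, r 0.70), Zbtb4 (a methyl-CpG binder, 0.69) and Resf1 (a retroelement silencing factor, 0.68), followed by Antkmt (0.66) and Unc80 (0.66; 0.23 in F1 and 0.93 in F2), and the lowest were with Il17d (−0.75) and Cmtm5 (−0.70). For A_55_P2095047 of Mat2a they were with Acvr1 (an activin receptor, 0.93), Ldah (a lipid droplet hydrolase, 0.91) and Gnl3l (a nucleolar GTPase, 0.90), followed by Arpc5 (0.90) and Mbd2 (0.89), and the lowest were with Eef1akmt2 (−0.86) and Atg13 (−0.84). None of these genes was called in F1 or F2, where 11 of 39429 and 0 of 39423 probes passed.

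Marker genes of hippocampus and of neighbouring tissues were read on the same arrays as Mat2a, as the log2 of their summed signal. Of the hippocampal principal neuron markers, 8 of 8 were well above background in both generations, and the Wfs1 probe added the largest signal to the sum. Their sum differed between diets by −0.04 in F1 (exact permutation p = 0.117) and 0.00 in F2 (exact permutation p = 0.961). Ependyma markers (7 of 8, largest signal from the Tekt1 probe) ran from 12.05 to 12.45 in CD F1 (median 12.24) and from 12.30 to 13.07 in MD F1 (median 12.55). These groups overlapped, and the difference of 0.40 (exact permutation p = 0.00649) had the opposite sign in F2 (−0.55, exact permutation p = 0.0325). Single ependyma markers did not all go with the F1 sum. Tekt1 (0.49), Foxj1 (0.47), Rsph1 (0.46), Dnah11 (0.30), Dnah5 (0.12) and Ccdc39 (0.03) were above 0. Hydin (−0.05) and Spag17 (−0.415) were below, the latter well above background on 6 of 12 F1 arrays. In F2 these markers ran from −0.93 for Dnah11 to −0.08 for Hydin. Thalamus markers (6 of 8, largest signal from the Prkcd probe) ran from 11.93 to 12.12 in CD F1 (median 12.03) and from 11.72 to 11.89 in MD F1 (median 11.82). These groups did not overlap (−0.21, exact permutation p = 0.00216), while in F2 the difference was −0.02 (exact permutation p = 0.84). Among single probes, 419 of 39223 (1.07%) had every MD F1 array below every CD F1 array. The p-values of the marker sums were not corrected for the number of lists. Taken singly, 6 of 8 thalamus markers had a negative F1 difference, from −0.38 for Plekhg1 to −0.14 for Calb2. The others were Lef1 at 0.07 (limma FDR 0.776) and Gbx2 at 1.06 (FDR 0.253), the latter well above background on 10 of 12 F1 arrays.

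Markers of 2 other tissues were read beside Mat2a in the same way. Choroid plexus markers (8 of 8 in F1, 7 of 8 in F2, largest signal from the Ttr probe) ran from 11.93 to 16.63 in CD F1 and from 11.94 to 17.79 in MD F1. In F2 they ran from 11.28 to 18.10 in CD F2 (median 17.80) and from 11.57 to 17.72 in MD F2 (median 13.07), a difference of −2.26 (exact permutation p = 0.173). Striatal markers (largest signal from the Ppp1r1b probe) differed by 0.08 in F1 (exact permutation p = 0.32) and −0.18 in F2 (exact permutation p = 0.0801). None of the marker genes named here was called, beside 11 of 39429 probes in F1 and 0 of 39423 in F2. The part of these tissues in the Mat2a values was not tested.

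A measure of sex composition varied between arrays in both generations. The sex measure, the mean of 4 Y-linked genes minus Xist, ran from −2.30 to −1.89 in CD F1 (median −1.95) and from −2.15 to 0.15 in MD F1 (median −1.51), the highest on MD F1 replicate 6. These groups overlapped, with a difference of 0.73 (exact permutation p = 0.0541). In F2 it was 5.23 to 7.26 on 9 arrays and −7.66 to −7.43 on 3, namely CD F2 replicates 3 and 5 and MD F2 replicate 6. MD F2 replicate 6 was also the array with the lowest A_55_P2095047 level of Mat2a in F2. With this measure as a covariate, the A_51_P500344 difference of Mat2a was −0.42 in F1 (limma FDR 0.298), and that of A_55_P2095047 was −0.18 in F1 (FDR 0.64) and −0.44 in F2 (FDR 0.664). With total signal as the covariate they were −0.39 (limma FDR 0.723), −0.14 (FDR 0.866) and −0.35 (FDR 0.715).

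Limits of these data bear on every Mat2a value above. Each array is a pool of 4 mice, so spread between single mice was not measured. The intensities describe relative transcript amount at 1 stretch of each transcript, and protein or enzyme activity was not measured. Probe sequences were not in the files used here, so which Mat2a transcripts each probe binds was not determined. Diet was balanced over slides, but generation was not, and the generations also differed in genotype and in the sex measure. Mat2a was lower at A_51_P500344 in every MD F1 array than in every CD F1 array without passing the FDR threshold, and a cause was not tested.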

How the data were processed

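Intensity values (gProcessedSignal, background-subtracted, per the file headers) were used as deposited by the authors for 24 arrays. Irregular spots, by the files' other flags, were left out, replicate spots of a probe averaged, and log2 values quantile-normalized within each generation. The interaction and the generation difference used all 24 arrays normalized together. Group differences were fitted in limma 3.58.1 (R 4.3.3) with FDR below 0.1 over all probes. Exact and permutation tests and correlations used Python 3.11.15 and scipy 1.17.1. Alternative analyses changed the normalization, background, blocking, covariates, probe filter, weights and threshold, or left out 1 array at a time. Members and gene lists were chosen with earlier results of these data known. Named genes were the called genes of each pathway list and its gene with the smallest p in F1 and in F2. Depth was taken as spots well above background and total signal. The code was tested on simulated data with known differences.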

Additional observations from a re-analysis of the deposited data

Results flagged for a closer look

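Outlying arrays were sought by Dixon's test in 32 sets of 6 values. Chance gives about 1 in 20 groups, or 1.6 of 32, and 8 were found. For the Mat2a probe A_55_P2095047, MD F2 replicate 6 measured 9.76, against 10.48 to 10.83 on the other MD F2 arrays. For the difference between the Mat2a probes, MD F1 replicate 6 gave 4.95, against 4.32 to 4.52. Spots well above background numbered 28000 on CD F2 replicate 6, against 32809 to 34661, and 27383 on MD F2 replicate 3, against 32916 to 33742.

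Mean correlation with other arrays was 0.985 for MD F1 replicate 6, against 0.992 to 0.994. It was 0.977 for CD F2 replicate 6, against 0.986 to 0.987, and 0.974 for MD F2 replicate 3, against 0.987 to 0.988. The sex measure of MD F2 replicate 6 was −7.43, against 5.23 to 7.26. All arrays were kept. The cause was not tested.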

How the results depend on the processing

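For A_51_P500344 of Mat2a in F1, no alternative changed the sign. The difference was −0.60 without normalization (FDR 0.0581), −0.41 with dim probes left out (FDR 0.0959), −0.39 with all 24 arrays normalized and fitted together (FDR 0.0556) and −0.44 with array weights (FDR 0.05). These passed the threshold that the planned analysis missed. Leaving out 1 array at a time gave −0.44 to −0.38, and without MD F1 replicate 6 it was −0.41 (FDR 0.0873). For A_55_P2095047 in F1 it was −0.59 without normalization (FDR 0.0844). Of 39429 probes, 7952 passed in F1 without normalization.

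Mat2b in F1, −0.02 as planned, had no fixed sign. It was 0.0369 under 75th-percentile scaling, 0.0123 with normexp background and 0.11 with total signal as a covariate. It was −0.23 without normalization (FDR 0.251) and −0.0634 to 0.0152 leaving out 1 array. Without normalization the sign changed in F1 for Dnmt1 (−0.15), Bhmt2 (−0.0821), Mri1 (−0.082), Mettl16 (−0.14) and Nnmt (−0.0749). In the same fit Ahcy (−0.65, FDR 0.0773), Slc7a5 (−1.02, FDR 0.0866) and Cbs (−0.35, FDR 0.0881) passed. So did 7952 of 39429 probes, and the median of all probes shifted by −0.28. With array weights, where 542 probes passed, Mri1 did (0.23, FDR 0.0652).

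Of 42 pathway genes, 0 were called in F1 as planned, beside 11 of 39429 probes. Without normalization 8 were, beside 7952 of 39429 probes, and the 2 shares were not compared by a test. The count was 1 with dim probes left out (41 probes in all). It was 1 with all 24 arrays normalized and fitted together (70 probes) and 2 with array weights (542 probes). Leaving out 1 array gave 0 to 2 pathway genes, beside 0 to 152 probes. In the interaction, 1 was called with array weights, beside 513 probes.

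Probes called in F1, 11 as planned, were 4 under 75th-percentile scaling, 7952 without normalization, 5 with normexp, 41 with dim probes left out, 70 with all 24 arrays normalized and fitted together, 3 with a trend and robust fit, 542 with array weights and 4 with 1 probe per gene. They were 0 with slide as a block, 0 with the sex measure, 0 with total signal and 0 at FDR below 0.05. Leaving out 1 array gave 0 to 152.

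In F2, A_51_P500344 changed sign: 0.0591 under 75th-percentile scaling, 0.0134 without normalization, 0.0031 with the sex measure, and −0.0464 to 0.0187 leaving out 1 array. Mat2b in F2 ran from −0.0242 to 0.0714 leaving out 1 array. Cth, 0.04 as planned, was −0.0094 under 75th-percentile scaling and −0.0551 without normalization. Slc43a2, 0.06 as planned, was −0.0282 with array weights. Probes called in F2, 0 as planned, were 17 with all 24 arrays normalized and fitted together and 0 to 1 leaving out 1 array.

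For the interaction, A_51_P500344 was −0.41 with array weights (FDR 0.0798) and −0.62 without normalization (FDR 0.697). A_55_P2095047 was −0.19 without normalization and −0.0733 to 0.17 leaving out 1 array. Mat2b was −0.25 without normalization, −0.15 with array weights, −0.0161 with total signal and −0.10 to 0.0039 leaving out 1 array. Called probes, 5 as planned, were 0 without normalization, 9 with normexp, 11 with dim probes left out, 59 with total signal, 513 with array weights, 12 with 1 probe per gene and 3 to 42 leaving out 1 array.

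For the generation difference under control diet, A_51_P500344 was 0.0736 under 75th-percentile scaling (FDR 0.368) and −0.39 without normalization, and Mat2b was −0.26 without normalization. With 1 probe per gene, 12570 were called.

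The change of the difference between the Mat2a probes ran from −0.21 to −0.0827 in F1 and from 0.18 to 0.43 in F2 leaving out 1 array. With normexp it was −0.16 (exact permutation p = 0.201) and 0.34 (exact permutation p = 0.11).

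Scaled to single reference genes, Mat2b in F1 was 0.0139 with Gusb. A_51_P500344 in F2 was −0.0421 with Actb and −0.0555 with Gapdh. A_55_P2095047 in F2 was −0.29 with B2m (exact permutation p = 0.279). Mat2b in F2 was −0.032 with Actb and −0.0454 with Gapdh.

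Correlations depended on scaling. Against the count of spots well above background in place of total signal, r was −0.0224 for A_51_P500344 in F1 and −0.22 for A_55_P2095047 in F2. Under 75th-percentile scaling, r between the Mat2a probes was −0.15 in F1. A_51_P500344 with Mat2b was 0.17 in F2 and A_55_P2095047 with Mat2b −0.23 in F1. Total signal gave −0.0614 in F1 and −0.18 in F2 with A_51_P500344, and −0.0109 in F2 with Mat2b.

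Without normalization all pairs were positive, each with a BH value under 0.05. Between the Mat2a probes r was 0.68 in F1 and 0.66 in F2. A_51_P500344 with Mat2b gave 0.87 and 0.86, and A_55_P2095047 with Mat2b 0.61 and 0.68. Total signal gave 0.77 and 0.96 with A_51_P500344, 0.76 and 0.80 with A_55_P2095047, and 0.916 and 0.917 with Mat2b. With slide means removed, A_51_P500344 with Mat2b in F2 was 0.0694.

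Replicate numbers did not pair the samples: same-number correlations of deviations ran from −0.224 to 0.282 in F1 and from −0.441 to 0.444 in F2, with 3 of 6 over 0.1 in each. With the planned replicate block, A_51_P500344 in F1 was −0.41 (FDR 0.255), 0 probes were called in F1, 27 in the interaction and 23457 in the generation difference.

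Added alternatives were chosen after seeing the data: normexp on the median signal, F2 without CD F2 replicate 6 and MD F2 replicate 3, exact tests of A_55_P2095047 without its lowest array, slide as a random block for the generation difference, and slide means removed. Without those 2 F2 arrays, A_51_P500344 was −0.02 and A_55_P2095047 −0.38 (FDR 0.828). The planned normexp on gMeanSignal was not run, since the files used here hold no such column. Signal over background limits what can be said: Mat1a was at background on every array, so no alternative was computed for it. The cause was not tested.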
